A study of Homo sapiens with 6 samples.

Results

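Human endogenous retroviruses of class II are named HERVK after a primer binding site for lysine transfer RNA. The name alone does not show that a group carries this site. The elements described here are class II groups other than HML-2, the group with the youngest proviruses, and were taken by repeat name from counts of reads over repeat elements. The class II name HERVKC4-int is not among them. A locus was included when its name began with HERVK and a digit, with MER9a, MER9B, MER11A to MER11D or LTR22, or was LTR3, LTR13, LTR14 or one of their lettered forms. This rule, which uses the repeat name alone, took 1361 of 433837 listed loci and 36 of 5230 repeat names. Every listed locus held a read in some library, so copies without any read are not in these counts. The RNA came from HEK293T, a human embryonic kidney cell line. For 3 libraries a chimeric antisense oligonucleotide (ASO) directed at U7 small nuclear RNA was introduced by lipofection at 100 nM; U7 is the RNA of the particle that processes replication-dependent histone transcripts at their 3′ ends. In the other 3 libraries they received a GFP ASO as the control. The cell line and transfection were common to both groups, and the series text calls the libraries of a group biological replicates. The 16 listed entries named U7 held 10, 4 and 6 reads with the U7 ASO and 10, 6 and 12 in the controls; which of them, if any, is the targeted gene is not given in these tables, so they do not check the depletion.

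A provirus consists of an internal part, with the gag, pro, pol and env genes, between a pair of long terminal repeats (LTRs) that hold the promoter and the polyadenylation signal. Recombination between the LTRs leaves a solitary LTR, which can still act as a promoter or enhancer. The class II groups are called HML, for human mouse-mammary-tumour-virus-like. By the usual pairing of names, HERVK14 with LTR14, LTR14A and LTR14B is HML-1, HERVK9 with the MER9 names is HML-3, and HERVK13 with LTR13 is HML-4. HERVK22 with LTR22 is HML-5, HERVK3 with LTR3 is HML-6, HERVK11D with MER11D is HML-7, HERVK11 with the other MER11 names is HML-8 and HERVK14C with LTR14C is HML-9. Names that end in -int are internal parts.

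The U7 ASO libraries held 4592, 5465 and 7183 reads in these loci, and the control libraries 3460, 3640 and 4534. These were 0.220%, 0.233% and 0.255% of the repeat reads with the U7 ASO and 0.171%, 0.189% and 0.229% in the controls. All repeat loci together held between 2089822 and 2819540 reads per U7 ASO library and between 1926892 and 2025985 per control library. After scaling to CPM, reads divided by the scaled library size and given per 1e+06, the summed level was 2159, 2247 and 2556 CPM with the U7 ASO and 1852, 1953 and 2187 CPM in the controls. The groups overlapped, and the means were 2320 ± 208 and 1998 ± 171 CPM (SD, n = 3 each). CPM are not divided by length, so levels of different names are not ranked.

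Of the 36 names, 30 held enough reads to be tested, and MER9a1 was the 1 name that rose (edgeR quasi-likelihood test, adjusted p under 0.05 over all 2236 names). This was 1 of 30 names, where 1.52% of all tested names were raised. None fell by that test or by DESeq2 or limma-voom, where 1.03% of all tested names were lowered. At an unadjusted p under 0.05, 5 names were higher (6.93% of all tested names) and 1, MER9a3, was lower (7.65%). The median log2 fold change was 0.15 over the 30 names and −0.01 over all tested names. The U7 ASO values lay above all control values for 5 names, MER9a1, LTR22C0, LTR14A, MER11A and LTR13, where 9.93% of all tested names did so, and below them for 1, MER9a3 (10.2% of all). The 29 names that did not pass ranged in log2 fold change from −0.65 for MER9a3 to 1.43 for LTR22C0. For 12 of them the 95% interval of the fold change stayed within a doubling and a halving. The highest upper bound, 2.57 for MER9B, lay under the interval of LTR12C, which ran from 3.13 to 3.88. LTR12C is an LTR of the HERV9 retroviruses that the series title asks about.

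**Figure D1:**
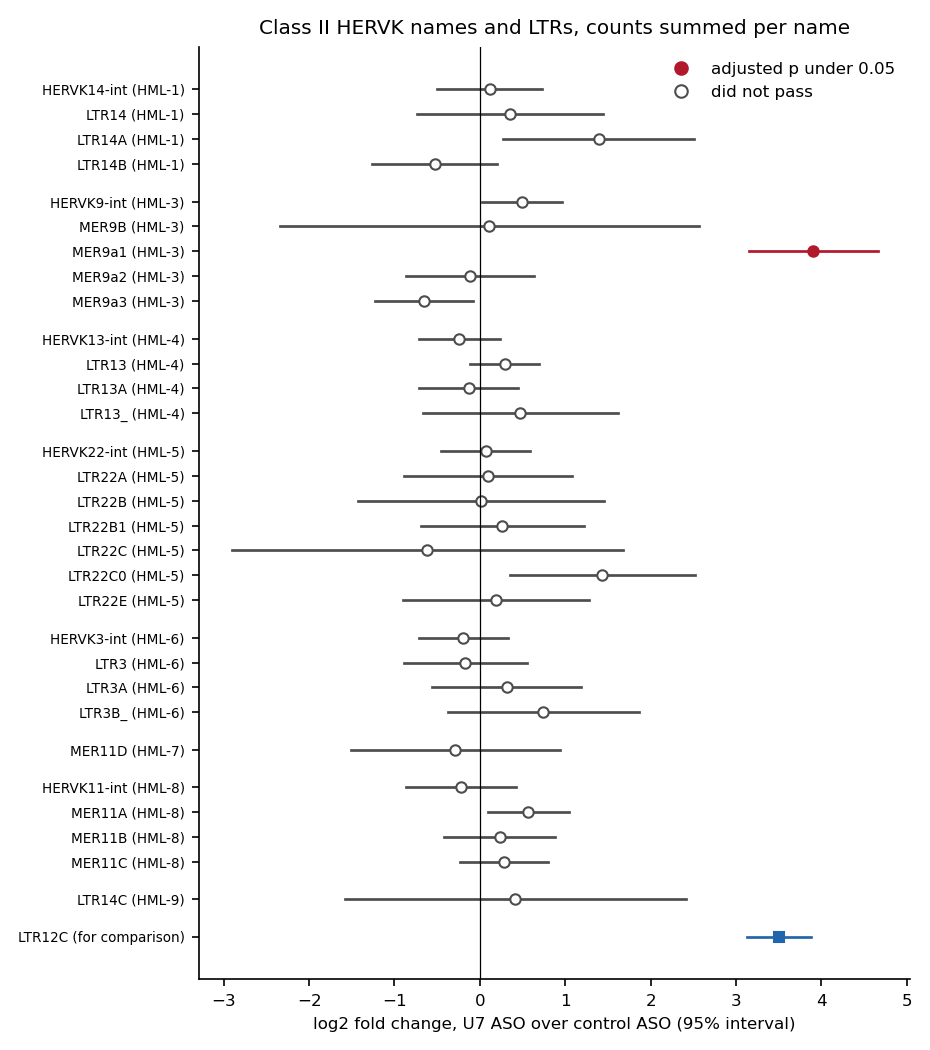
Log2 fold changes (U7 ASO over control ASO, x axis) of the 30 tested class II names in order of lineage, with 95% intervals from the quasi-likelihood fit; the filled red point passed the test and open points did not. MER9a1, at 3.91, stands at the level of LTR12C, the blue square shown for comparison, and the other 29 names lie between −0.65 and 1.43.

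HML-3 held the change. MER9a1, an LTR of this lineage, had 147, 114 and 156 CPM in the U7 ASO libraries, against 10.7, 12.3 and 4.82 CPM in the controls. Every U7 ASO library was far above every control library, and the log2 fold change was 3.91 (SE 0.36, adjusted p = 4.63e-07, edgeR). Most of these reads came from a single locus, MER9a1_dup18_271370. It held 284, 253 and 400 reads with the U7 ASO and 6, 0 and 0 reads in the controls, a ratio of mean CPM of 118 (log2 fold change 7.07, SE 0.71, adjusted p = 2.67e-05, edgeR). That was 91.1% of the MER9a1 reads with the U7 ASO and 11.3% in the controls. The other 27 MER9a1 loci together held 29, 24 and 39 reads with the U7 ASO, against 14, 23 and 10 reads in the controls. Without the leading locus MER9a1 no longer passed (log2 fold change 0.60, SE 0.65, adjusted p = 0.751).

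The neighbouring entries of MER9a1_dup18_271370 in the repeat list have the order of a HERV9 provirus. The tables give no coordinates, but each identifier ends in a running number, and loci with adjoining numbers are taken here as neighbouring entries. The 4 entries before it, LTR12C_dup88_271364, HERV9NC-int_dup10_271365, HERV9NC-int_dup11_271366 and LTR12C_dup89_271367, run as an LTR, an internal part in 2 pieces and an LTR again. LTR12C_dup89_271367, 3 running numbers away, held 398, 290 and 557 reads with the U7 ASO and 0, 0 and 12 in the controls. HERV9NC-int_dup10_271365 held 211, 191 and 271 reads with the U7 ASO and 6, 0 and 0 in the controls. All 4 rose, with log2 fold changes from 6.16 to 7.16, close to that of the MER9a1 locus. On the other side, AluY_dup5655_271374 held 0, 0 and 10 reads with the U7 ASO and none in the controls. Whether the reads on MER9a1_dup18_271370 belong to a transcript of the HERV9 element was not tested.

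**Figure D2:**
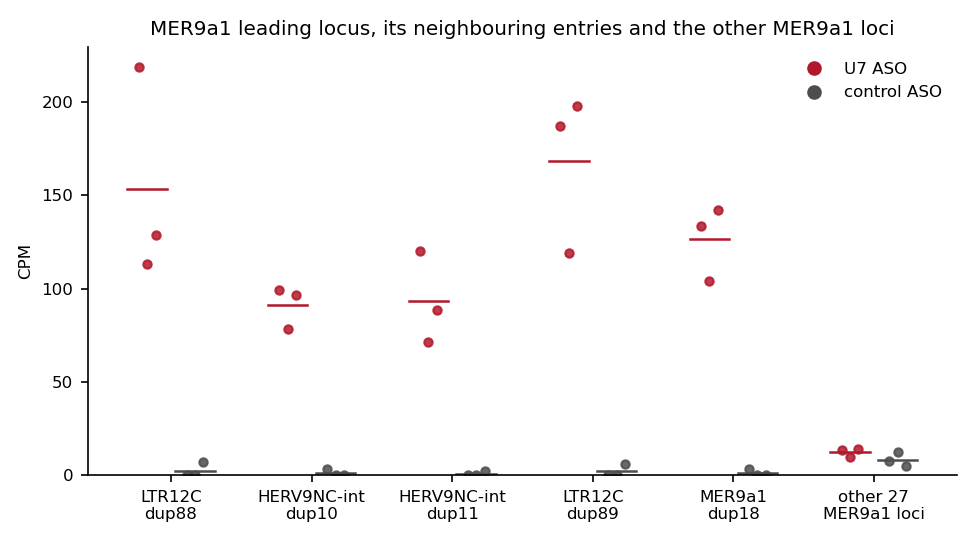
CPM by library (points) and group mean (lines) for MER9a1_dup18_271370, the 4 HERV9 provirus entries that precede it in the repeat list, and the other 27 MER9a1 loci summed. In all 5 single loci the U7 ASO libraries are far above the controls, whereas the other MER9a1 loci stay between 4.82 and 13.9 CPM in all 6 libraries.

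The remaining HML-3 names did not pass. MER9a3, a further LTR form, had 56.9, 55.1 and 53.4 CPM with the U7 ASO and 99.0, 77.8 and 82.5 CPM in the controls, without overlap (log2 fold change −0.65, SE 0.27, adjusted p = 0.267). Its leading locus, MER9a3_dup15_4994442, held 74, 48 and 28 reads with the U7 ASO, against 123, 82 and 134 in the controls (log2 fold change −1.26, SE 0.43, adjusted p = 0.162). Summed without that locus, MER9a3 had 47, 86 and 122 reads with the U7 ASO and 62, 63 and 37 in the controls, and the log2 fold change turned to 0.26 (SE 0.40, adjusted p = 0.840). The internal part HERVK9-int had 182.4, 219.5 and 255.8 CPM with the U7 ASO and 133.3, 182.5 and 151.4 CPM in the controls, so the highest control just exceeded the lowest U7 ASO library (log2 fold change 0.49, SE 0.23, adjusted p = 0.317). Its reads were spread over 110 loci, and the leading one, HERVK9-int_dup3_3289523, carried 8.35% with the U7 ASO and 8.20% in the controls. MER9a2 had 32.8 ± 2.79 CPM with the U7 ASO and 35.7 ± 8.69 CPM in the controls (SD, n = 3 each). MER9B held between 0 and 26 reads in a library. Over the whole lineage the level was 428, 429 and 501 CPM with the U7 ASO and 290.2, 324 and 265 CPM in the controls. With MER9a1_dup18_271370 left out it was 294, 325 and 359 CPM with the U7 ASO and 287, 324 and 265 CPM in the controls, and the groups overlapped. The HML-3 LTR names alone, without that locus, were at 107 ± 4.64 CPM with the U7 ASO and 136 ± 20.7 CPM in the controls (SD, n = 3 each), with every U7 ASO library below every control.

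HML-4 had similar levels in both groups. LTR13, its most numerous LTR name with 156 listed loci, had 334, 390.1 and 407 CPM with the U7 ASO and 288, 320.4 and 317 CPM in the controls. The groups did not overlap, but the difference was small (log2 fold change 0.29, SE 0.19, adjusted p = 0.532), and its 95% interval ran from −0.11 to 0.69. The internal part HERVK13-int had 169, 195 and 139 CPM with the U7 ASO and 167, 199 and 230 CPM in the controls (log2 fold change −0.24, SE 0.23, adjusted p = 0.716). LTR13A had 74.9 ± 9.67 CPM with the U7 ASO and 82.1 ± 17.2 CPM in the controls, and LTR13_ had 18.4 ± 6.56 and 13.3 ± 5.92 CPM (SD, n = 3 each).

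A single HML-4 entry gave a large share of the internal reads. HERVK13-int_4441126 held 177, 214 and 183 reads with the U7 ASO and 176, 210 and 230 in the controls, which was 46.9% of the HERVK13-int reads with the U7 ASO and 53.2% in the controls. Its log2 fold change was −0.22 (SE 0.29), with a 95% interval from −0.84 to 0.40. Of the LTR entries on its sides, LTR13_4441125, the adjoining one, held 16, 10 and 14 reads with the U7 ASO and 18, 2 and 10 in the controls (log2 fold change 0.30, SE 1.03, adjusted p = 0.968). LTR13_dup1_4441128, on the other side beyond a further internal entry, held 28, 26 and 33 reads with the U7 ASO and 2, 10 and 6 in the controls, and did not pass (log2 fold change 2.11, SE 0.82, adjusted p = 0.250). LTR13_dup21_2680395, the LTR13 locus with the most reads, held 192, 149 and 161 reads with the U7 ASO and 81, 160 and 126 in the controls, and the ranges overlapped. Another HML-4 cluster of 16 entries, from LTR13_dup26_4697185 to LTR13A_dup5_4697209, held 64, 129 and 209 reads with the U7 ASO and 22, 50 and 51 in the controls. Within it HERVK13-int_4697187 held 40, 44 and 48 reads with the U7 ASO and 4, 16 and 18 in the controls (log2 fold change 1.66, SE 0.64, adjusted p = 0.245). Shortly after this cluster comes MER11C_dup10_4697237, an LTR of HML-8, with 41, 35 and 55 reads with the U7 ASO and 0, 10 and 8 in the controls. It came nearest to a call among the 81 other tested loci (log2 fold change 2.70, SE 0.86, adjusted p = 0.119, edgeR), and passed with DESeq2 (adjusted p = 0.0312) and with a minimum count of 30 (adjusted p = 0.0320).

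In HML-8 the LTR names were higher on average and the internal part was not, without a call for any of them. MER11A had 164, 173 and 196 CPM with the U7 ASO and 103, 118 and 139 CPM in the controls, without overlap (log2 fold change 0.57, SE 0.23, adjusted p = 0.238). Its reads were spread over 173 loci, of which the leading one, MER11A_dup19_965683, carried 6.21% with the U7 ASO and 5.00% in the controls. Without that locus the log2 fold change was 0.55 (SE 0.23, adjusted p = 0.264). MER11C had 184, 164 and 169 CPM with the U7 ASO and 99.0, 138 and 188 CPM in the controls, with control library 3 above every U7 ASO library. MER11B had 80.0 ± 24.0 CPM with the U7 ASO and 68.0 ± 22.2 CPM in the controls, and the internal part HERVK11-int had 50.7 ± 12.1 and 59.1 ± 5.73 CPM (SD, n = 3 each). HML-7 was sparse. MER11D had 9.40, 14.4 and 12.1 CPM with the U7 ASO and 24.6, 9.66 and 9.65 CPM in the controls, and HERVK11D-int held 21, 2 and 0 reads with the U7 ASO and 4, 0 and 6 in the controls, too few to test.

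In HML-1, LTR14A had 15.04, 18.9 and 40.6 CPM with the U7 ASO and 6.96, 11.8 and 9.65 CPM in the controls. The groups did not overlap, and U7 ASO library 3 was the highest, but the name did not pass (log2 fold change 1.39, SE 0.54, adjusted p = 0.216). The 5 LTR14A loci that lie within 20 running numbers of an LTR12 or HERV9 locus held 14, 41 and 88 reads with the U7 ASO and 0 in every control. Only loci with a read are listed, so these 5 were listed through their U7 ASO reads alone. Their contrast with the controls is therefore not a test. Without these 5 loci LTR14A had 18, 5 and 26 reads with the U7 ASO and 13, 22 and 20 in the controls, and the log2 fold change was −0.52 (SE 0.78, adjusted p = 0.827). Leaving them out removed U7 ASO reads and no control reads, so the direction of this shift was fixed in advance. LTR14A_dup5_3105824 lies 4 running numbers from LTR12D_dup15_3105828, and HERVK14-int_dup8_3105827, an internal part of the same lineage, lies between them, next to the LTR12D locus. The LTR14A locus held 2, 11 and 37 reads and the internal part 18, 4 and 9 reads with the U7 ASO, and both had 0 in all controls, while LTR12D_dup15_3105828 held 36, 2 and 16 reads with the U7 ASO and 0, 0 and 2 in the controls. LTR14B had 21.6, 39.5 and 50.2 CPM with the U7 ASO and 58.4, 45.1 and 57.9 CPM in the controls (log2 fold change −0.53, SE 0.35, adjusted p = 0.531). HERVK14-int had 65.4 ± 10.4 CPM with the U7 ASO and 60.3 ± 10.7 CPM in the controls, and LTR14 had 21.9 ± 12.1 and 17.2 ± 7.55 CPM (SD, n = 3 each). In HML-9, LTR14C had 10.8, 0.822 and 6.404 CPM with the U7 ASO and 5.35, 3.22 and 4.82 CPM in the controls, and HERVK14C-int was not tested.

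In HML-5 no tested name passed. The internal part HERVK22-int had 189.5, 187.9 and 320.2 CPM with the U7 ASO and 177.8, 204.5 and 283.6 CPM in the controls (log2 fold change 0.07, SE 0.25, adjusted p = 0.938). Library 3 was the highest of both groups. HERVK22-int_dup3_3771856 carried 42.0% of these reads with the U7 ASO and 43.4% in the controls, with 184, 146 and 410 reads against 164, 175 and 226. Among the LTRs, LTR22C0 had 38.1, 30.01 and 24.5 CPM with the U7 ASO and 8.03, 20.9 and 5.31 CPM in the controls (log2 fold change 1.43, SE 0.52, adjusted p = 0.191). Its 3 loci near an LTR12 or HERV9 locus held 24, 18 and 4 reads with the U7 ASO and 0 in every control. Of these, LTR22C0_2681972 held 0, 8 and 0 reads and LTR22C0_3971803 held 0, 0 and 4 reads with the U7 ASO. All 3 were listed through U7 ASO reads alone, so their contrast with the controls is not a test. Without these loci the log2 fold change of LTR22C0 was 1.08 (SE 0.54, adjusted p = 0.381, edgeR). Leaving them out removed no control reads, so a lower value was fixed in advance. LTR22A, LTR22B, LTR22B1, LTR22C and LTR22E had log2 fold changes between −0.62 and 0.26, with adjusted p-values from 0.854 to 0.997, and LTR22, LTR22B2 and LTR22C2 were not tested.

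The groups overlapped for every tested name of HML-6. The internal part HERVK3-int had 107, 120.4 and 173 CPM with the U7 ASO and 132, 139.5 and 186 CPM in the controls (log2 fold change −0.19, SE 0.25, adjusted p = 0.787). Its leading locus HERVK3-int_dup51_5043889 held 74, 74 and 169 reads with the U7 ASO and 41, 76 and 150 in the controls. HERVK3-int_dup52_5043891 and LTR3_dup23_5043896 follow it in the repeat list, with LTR13_dup61_5043890, an LTR of HML-4, between the internal parts. LTR3_dup23_5043896 held 68, 49 and 59 reads with the U7 ASO and 37, 42 and 41 in the controls (log2 fold change 0.43, SE 0.42, adjusted p = 0.852). LTR3 had 42.7 ± 16.6 CPM with the U7 ASO and 47.8 ± 6.66 CPM in the controls, and LTR3A had 29.3 ± 6.35 and 23.5 ± 8.66 CPM (SD, n = 3 each). LTR3B held 4, 4 and 2 reads with the U7 ASO and 0, 1 and 0 in the controls, without overlap in CPM but too few to test. LTR3B_ had 31.0, 19.7 and 16.4 CPM with the U7 ASO and 21.4, 12.3 and 6.27 CPM in the controls (log2 fold change 0.74, SE 0.53, adjusted p = 0.569, edgeR). Its leading locus LTR3B__dup12_5042043 carried 68.8% of these reads with the U7 ASO and 96.1% in the controls. The other LTR3B_ loci held 14, 16 and 20 reads with the U7 ASO and 2, 0 and 1 in the controls, and did not pass (adjusted p = 0.145, edgeR). Their ratio was 13.1, with an exact 95% counting interval from 4.24 to 65.8 that takes each read as independent.

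Summed by structural part, the groups were apart for the LTR names and overlapped for the internal names. The 28 LTR names together had 1383, 1407 and 1539 CPM with the U7 ASO and 1112, 1111 and 1209 CPM in the controls, and the groups did not overlap. The ratio of means was 1.26. Leaving out MER9a1_dup18_271370 gave 1249.6, 1303 and 1396 CPM with the U7 ASO and 1109, 1111 and 1209 CPM in the controls, a ratio of means of 1.15. Not every lineage had this direction, since the HML-3 LTR names without that locus were lower with the U7 ASO. Without any LTR locus near LTR12 or HERV9 the levels were 1208, 1257 and 1343 CPM with the U7 ASO and 1095, 1073 and 1197 CPM in the controls. The ratio of means was then 1.13, still without overlap but separated by little. The 8 internal names had 776, 839 and 1017 CPM with the U7 ASO and 740.5, 843 and 978 CPM in the controls, a ratio of means of 1.03. No test was made on these sums or on the difference between them, because the members were chosen with results known.

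**Figure D3:**
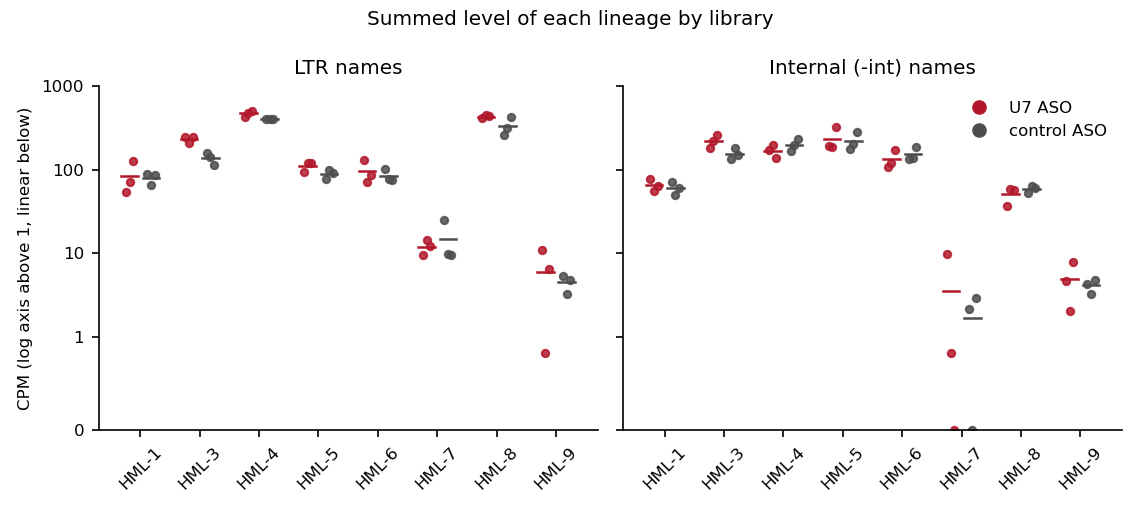
Summed CPM of the LTR names (left) and the internal names (right) of each lineage, by library (points) with group means (lines); the axis is logarithmic above 1 CPM. The U7 ASO and control points overlap in every lineage and part except the LTRs of HML-3 and HML-4, where the U7 ASO points are higher. Without MER9a1_dup18_271370, which is included here, the HML-3 LTRs were lower with the U7 ASO, at 107 against 136 CPM.

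Single loci were tested where they held enough reads, which was so for 82 of the 1361, or 6.02%. A locus silent in the controls entered only when all 3 U7 ASO libraries held enough reads, so these 82 do not stand for all loci. MER9a1_dup18_271370 was the 1 raised locus of the 82, where 4.49% of all 14380 tested loci were raised. None was lowered by edgeR, DESeq2 or limma-voom, where 0.473% of all tested loci were lowered. At an unadjusted p under 0.05, 6 loci were higher (8.21% of all tested loci) and 2 were lower (4.09%). The U7 ASO CPM lay above all control CPM at 10 loci (9.94% of all tested loci) and below them at 5 (11.5%). With the scaling of the fit over loci in place of that over names, these counts were 11 (12.2%) and 3 (8.36%). The median log2 fold change was 0.30 over the 82 loci and 0.06 over all tested loci. Besides the loci above, HERVK9-int_dup11_1540549 of HML-3 held 26, 20 and 23 reads with the U7 ASO and 6, 5 and 2 in the controls (log2 fold change 2.25, SE 0.93, adjusted p = 0.303). HERVK3-int_dup48_5042191 of HML-6 held 30, 12 and 32 reads with the U7 ASO and 0, 2 and 8 in the controls (adjusted p = 0.309, edgeR). In the other direction, HERVK22-int_5045725 of HML-5 held 10, 14 and 4 reads with the U7 ASO and 38, 18 and 30 in the controls (adjusted p = 0.368, edgeR). The standard error of the log2 fold change had a median of 0.85 over the 81 loci that did not pass and of 0.36 over the 29 names, so single loci were far less precise.

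**Figure D4:**
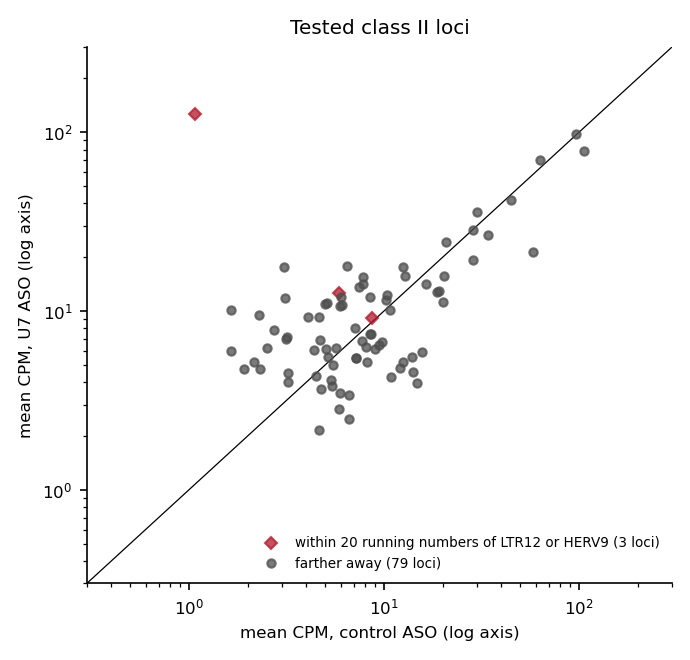
Mean CPM of the 82 tested loci in control ASO (x axis) and U7 ASO libraries (y axis), both logarithmic, with the line of equal levels; diamonds are the 3 loci within 20 running numbers of an LTR12 or HERV9 locus. MER9a1_dup18_271370, at 127 against 1.07 CPM, stands alone at the upper left, and the other loci scatter around the line.

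Position in the repeat list relative to LTR12 and HERV9 separated the loci further. Of the class II loci, 69 (5.07%) lay within 20 running numbers of an LTR12 or HERV9 locus, against 2.39% of the other loci outside LTR12 and HERV9. Distances were taken between listed loci, which all held a read, so nearness depended on which loci were read in either group. The 69 held 448, 498 and 789 reads with the U7 ASO and 73, 112 and 105 in the controls. Without MER9a1_dup18_271370 they held 164, 245 and 389 reads with the U7 ASO and 67, 112 and 105 in the controls, a ratio of mean CPM of 2.16. The other loci outside LTR12 and HERV9 at that distance had a ratio of 2.30, so this ratio is not particular to the class II names. Within 5 running numbers the ratio was 3.18 for the 27 class II loci other than MER9a1_dup18_271370, with overlapping groups, and 4.12 for the other repeats. From 21 to 100 running numbers it was 1.00 for the class II loci and 0.883 for the other repeats, and beyond 100 it was 1.08 and 0.942. At 0.883 every U7 ASO library lay below every control, and the groups overlapped for the remaining 3 ratios. At 41 of the 69 near loci reads were found in the U7 ASO group alone, and at 11 in the control group alone, which is 59.4% and 15.9%. Such loci were listed only through the reads of that group. For the other repeats at that distance these shares were 62.3% and 16.8%, so the counts are not particular to the class II loci. Among the 41 were HERVK22-int_dup22_1447210 and HERVK22-int_dup23_1447212 of HML-5, with 16, 2 and 45 reads and 6, 6 and 20 reads with the U7 ASO and 0 in all controls, 3 and 5 running numbers from LTR12C_dup180_1447207, which itself held 2, 2 and 0 reads with the U7 ASO and none in the controls. The 11 loci read in the controls alone held no more than 6 reads each, all in 1 library.

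**Figure D5:**
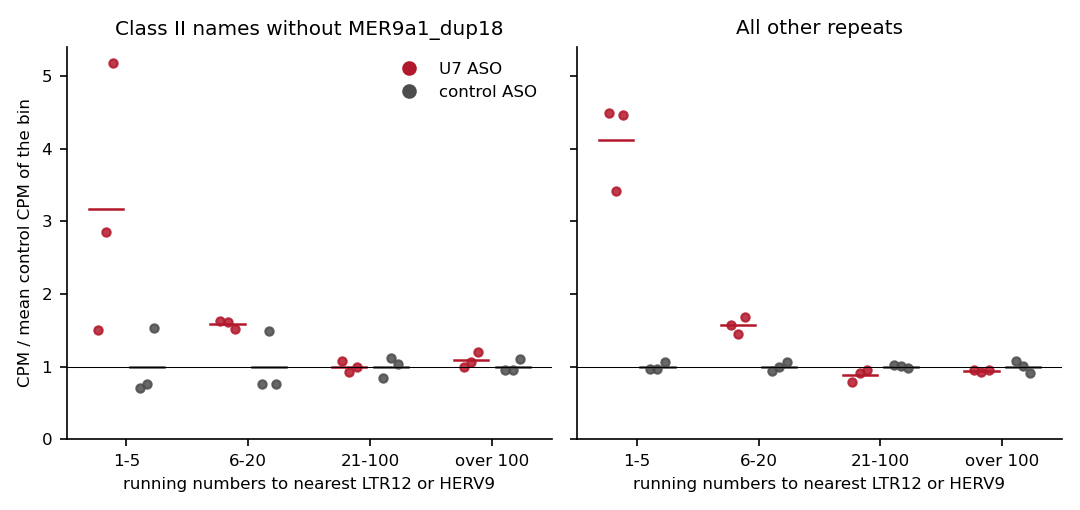
CPM relative to the mean control CPM of each bin, by library (points) with group means (lines), for class II loci without MER9a1_dup18_271370 (left) and all other repeats outside LTR12 and HERV9 (right), by running numbers to the nearest LTR12 or HERV9 locus. U7 ASO means are above the controls up to 20 running numbers in both panels, at 3.18 and 1.58 on the left and 4.12 and 1.57 on the right. Beyond, they are at 1.00 and 1.08 on the left and 0.883 and 0.942 on the right. At 0.883 the U7 ASO points all lie below the controls.

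Reads fell on more class II loci with the U7 ASO, in libraries that also held more reads. A read was found at 454, 577 and 569 loci with the U7 ASO and at 365, 422 and 408 loci in the controls. At an equal 3460 reads, computed exactly from each library's counts, 442, 545 and 519.9 loci would have been expected with the U7 ASO and 365, 421 and 399 in the controls, without overlap. Over all repeats at an equal 1926892 reads, the same calculation gave 117099, 156595 and 149815 loci with the U7 ASO and 95976, 120658 and 108734 in the controls. There U7 ASO library 1 lay below control library 2, and U7 ASO libraries 2 and 3 lay above every control. Higher numbers with the U7 ASO were thus not particular to the class II loci. Of the class II loci, 274 (20.1%) had no more than 2 reads over all 6 libraries, against 28.5% of all listed loci. Reads in every U7 ASO library and in no control were found at 23 loci (1.69%), against 1.10% of all listed loci, and the reverse at 7 loci (0.514%), against 0.319%.

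The related names of HML-2, not part of the groups above, gave mixed values in the same fit. LTR5_Hs, the LTR of its youngest proviruses, rose, at 326 ± 60.8 CPM with the U7 ASO and 165 ± 21.4 CPM in the controls (log2 fold change 0.98, SE 0.22, adjusted p = 0.0124, n = 3 each). LTR5A, at 73.0 ± 16.7 CPM with the U7 ASO and 33.9 ± 8.24 CPM in the controls, did not pass (log2 fold change 1.10, SE 0.32, adjusted p = 0.0895, n = 3 each), nor did LTR5B, at 136 ± 7.53 and 111 ± 26.5 CPM (SD, n = 3 each). LTR5 was at 37.3 ± 20.8 CPM with the U7 ASO and 77.7 ± 13.5 CPM in the controls, without overlap (log2 fold change −1.07, SE 0.39, adjusted p = 0.195, n = 3 each), and the internal part HERVK-int at 52.0 ± 3.14 and 67.9 ± 25.9 CPM (SD, n = 3 each). HERVKC4-int, a further class II internal name, had 5.18 ± 2.74 CPM with the U7 ASO and 15.4 ± 16.0 CPM in the controls (adjusted p = 0.388, edgeR, n = 3 each). Differences between HML-2 and the other class II names were not tested.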

How the data were processed

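RNA from 6 HEK293T libraries, 3 per ASO, was rRNA-depleted, per the labels' protocols. The authors deposited 1 table of raw read counts per repeat locus and library. FastQC 0.11.5, STAR 2.5.3a, featureCounts 1.5.0-p1 and GRCh38 are named in the submitters' processing notes. Neither the repeat annotation nor the settings for strand, multiple mapping and mates are stated in the sources used, so reads of near-identical copies could be split or moved between copies, and reads from opposite strands are not separated. Between 84.8% and 89.1% of the class II counts above 0 were even, as when both mates are counted.

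The members and the lists were chosen with earlier results of these data known. Groups came from the sample titles. Counts were tested over all loci, and summed per repeat name over all names, with edgeR 4.0.16 (quasi-likelihood, two-sided, TMM scaling, filterByExpr at a minimum count of 10 and total of 15) under R 4.3.3. P-values were adjusted by Benjamini-Hochberg over all features tested, with calls at 0.05. Standard errors are the log2 fold change over the root of F, and 95% intervals come from the t distribution on the fit's degrees of freedom. CPM, also of single loci and of sums, use the scaled library sizes of the fit over names, and are mean ± SD. A ratio with few control reads has an exact (Clopper-Pearson) interval. This interval covers counting error only and takes each read as independent. If both mates of a pair were counted, the interval is too narrow. No ratio is given where the controls held 0 reads. Every tested class II name was reported. The loci named were those called and the locus with the most reads of each tested name, a choice that takes in both groups' reads. Loci at an unadjusted p under 0.05, those near LTR12 or HERV9 and those in provirus-like runs were chosen after their values were seen. The fit was tested on simulated data. Alternatives were DESeq2 1.42.0, limma-voom (limma 3.58.1), other scalings and filters, a test against a fold of 1.5, a replicate block, leaving out each library, and names summed without some loci. No 2 replicates agreed within sampling noise, with chi-square values per degree of freedom of at least 11.7 over names.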

Additional observations from a re-analysis of the deposited data

How the results depend on the processing

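The calls of MER9a1 and MER9a1_dup18_271370 held under every scaling, filter and tool run and with any 1 library left out. Over the libraries left out, the log2 fold change ran from 3.59 to 4.18 for the name and from 6.45 to 11.2 for the locus; the 11.2, without control replicate 1, is set against 0 reads in both remaining controls and depends on the prior count. Summed without the leading loci, 0 class II names were raised (MER9a1 0.60), and likewise 0 without loci near LTR12 or HERV9 (MER9a1 0.56, adjusted p = 0.761). The number of raised class II loci was 2 with DESeq2 and 2 with a minimum count of 30, in both cases through MER11C_dup10_4697237. Upper-quartile scaling moved the median of all loci from 0.06 to −0.09. Over all names, 34 were raised and 23 lowered; this was 48 and 41 with DESeq2, 59 and 74 with the replicate block, 26 and 7 against a fold of 1.5, 46 and 76 without U7 ASO replicate 1, and 25 and 8 without U7 ASO replicate 3. Over all loci, 645 were raised and 68 lowered; this was 341 and 79 with limma-voom, 364 and 97 with a minimum count of 30, 293 and 20 without U7 ASO replicate 1, and 372 and 16 without U7 ASO replicate 3. With the replicate block 1 class II name and 1 locus were raised, as without it. Correlations of same-numbered deviations were 0.11, −0.03 and 0.12 over names, and those of differently numbered libraries ran from −0.15 to 0.056. With so few libraries these values cannot settle whether the replicate numbers pair them. With the block LTR22B was at −0.025.

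Among names and loci that passed in no setting, some signs turned. HERVK14-int_dup11_4387623 was at −0.0016 with library totals as the only scaling, −0.040 without a filter and −0.14 with upper-quartile scaling, and HERVK3-int_dup51_5043889 at −0.0017 with library totals and −0.046 with upper-quartile scaling. With limma-voom LTR14C was at −0.17, LTR22B at −0.048 and MER9B at −0.25. Without loci near LTR12 or HERV9, HERVK22-int was at −0.069, LTR14A at −0.52 and LTR22B at −0.14. For LTR14A the loci left out held no control reads. Without leading loci LTR22B was at −0.038, LTR22E at −0.033, MER9a2 at 0.0061 and MER9a3, which had been below 0, at 0.26. The cause was not tested. With 1 library left out at a time, the log2 fold changes ran from −0.22 to 0.29 for HERVK22-int, −0.27 to 0.026 for LTR13A, −0.18 to 0.69 for LTR14, −0.28 to 0.94 for LTR14C, −0.17 to 0.44 for LTR22A, −0.27 to 0.22 for LTR22B and −0.10 to 0.52 for LTR22B1. They ran from −0.061 to 0.36 for LTR22E, −0.49 to 0.069 for LTR3, −0.029 to 0.54 for MER11B, −0.51 to 0.32 for MER11D, −0.49 to 0.71 for MER9B and −0.30 to 0.049 for MER9a2. Among loci they ran from −1.02 to 0.31 for MER9a2_dup21_364248, −0.20 to 0.50 for HERVK22-int_dup3_3771856, −0.43 to 0.74 for HERVK14-int_dup11_4387623, −2.10 to 0.11 for HERVK11-int_dup19_4970335, −0.26 to 0.61 for HERVK3-int_dup51_5043889 and −0.30 to 0.73 for LTR14_dup1_5233154. A minimum count of 30 left 25 class II names and 18 loci, and leaving out leading loci left 27 names, so the others had no value there. At this depth 1279 of the 1361 loci could not be tested.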

Other observations

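Some class II loci lay together in the repeat list as proviruses do. Class II entries of 1 lineage that followed each other within 5 running numbers and held both an LTR and an internal part made up 99 runs with 318 loci and 44.7% of the class II reads. Over all 99 runs, 11 had all U7 ASO libraries above all controls, 12 had them below and 76 overlapped, where 9.94% of all tested single loci lay above and 11.5% below. The tested loci had passed a count filter, whereas the runs are unfiltered sums of loci. These shares are therefore not like for like. Of the 10 runs with the most reads, 1 had all U7 ASO libraries above all controls, 3 had them below and 6 overlapped. These sums were not tested. The run above was the HML-4 cluster from LTR13_dup26_4697185, at 52.5 ± 22.1 CPM with the U7 ASO and 21.1 ± 8.12 CPM in the controls. The runs below were an HML-3 run from MER9a3_dup14_4994439 (27.5 ± 7.40 and 64.5 ± 13.4 CPM), an HML-6 run from HERVK3-int_dup1_3008361 (29.6 ± 9.77 and 48.1 ± 9.44 CPM) and an HML-1 run from LTR14B_dup10_1091545 (22.1 ± 5.76 and 40.5 ± 4.59 CPM), each given as U7 ASO and control (mean ± SD, n = 3 each). The largest run, from LTR13_4441125 to LTR13_dup1_4441128, was at 106 ± 16.9 CPM with the U7 ASO and 125 ± 17.2 CPM in the controls.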
